A study of Mus musculus with 16 samples.

Results

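The very long protein-coding genes are those whose body, from the first to the last annotated base, spans 500 kb or more. They were chosen by the end minus the start of the gene in the GENCODE M21 annotation and by a mean of at least 10 counts over the 16 libraries. Symbols starting with Cacna1, Kcn, Sema3, Col, Fb, Erbb or Igf were left out. Of 21519 protein-coding genes in the counts table, 230 have a body of 500 kb or more, 73 of these stayed under the mean of 10 counts, and 5 were left out by symbol (Kcnq5, Erbb4, Kcnip4, Cacna1c and Kcnma1). This leaves 152 genes of the 45706 identifiers in the table, and all 152 passed the filter of the fit on low counts. The mean count is a measured value, so the levels below are a description of genes selected on being detected. At the edge of the length rule, Edil3 was the shortest member with 501.8 kb, and Pde1c, at 499.3 kb and a mean of 150.3 counts, was just outside. At the edge of the count rule, Cntnap2 was inside with a mean of 10.1 counts, and Ryr2, at 553.8 kb and 9.94 counts, was outside.

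RNA was sequenced from ear skin of 8 male C57Bl/6J mice, for which the labels and methods name no engineered allele and no treatment. Each mouse gave a punch of one ear at a nominal age of 24 months (23.8 to 24.4 months) and of the other ear at 30 months (29.0 to 30.1 months), so the 2 groups are the same 8 animals, and the ear side, the sampling round and age cannot be told apart. The libraries held 22967222 to 36162431 counts on genes, of which the very long genes took 69979 to 120291. The labels call the samples at 24 months young and those at 30 months old, and no younger age enters the comparison.

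RNA polymerase II copies a gene in one unbroken pass, so a gene of this size occupies a polymerase for hours, and nearly all of the copied sequence is intron that splicing removes. Full-length transcription of such genes depends on elongation factors, on topoisomerases that release the twist ahead of the polymerase, and on an undamaged template. Many of the longest mammalian genes encode adhesion, guidance and synapse proteins of the nervous system, and several lie at common fragile sites, stretches of chromosome that break under replication stress. In skin such genes are active in Schwann cells, but also in keratinocytes, fibroblasts and other cells.

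The members share an architecture. The median body was 700.3 kb, with a range of 501.8 to 2961 kb, and 37 genes were longer than 1000 kb. Other tested protein-coding genes under 500 kb, 15683 in number, had a median body of 22.7 kb. Exons made up a median of 1.41% of a member's body. The exonic length was nonetheless larger than usual, with a median of 11.1 kb against 4.18 kb in the other genes, and the members had a median of 19 exons against 9. The median GC content of the longest transcript was 46.22% against 49.96%. Chromosome 8 carried 13 members, chromosomes 2, 3 and 10 carried 11 each, and the X chromosome carried 8.

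The label of a very long gene depends on the annotation for a few members. RefSeq on the same build, GRCm38.p6, gave a body for 151 of the 152, and 144 of these also reach 500 kb there. The 7 that do not are Fgfr2, Slc7a11, Ntrk3, Ank3, Fars2, Atp8a2 and Zmat4. Fgfr2, a receptor for fibroblast growth factors, has the longest GENCODE body of all with 2961 kb (chr7:130162451-133123350, minus strand), but 104.4 kb in RefSeq. Slc7a11, the cystine and glutamate exchanger, has 551.1 kb in GENCODE and 134.2 kb in RefSeq.

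Sequence at transcription starts of these genes was read from RefSeq windows that run from 250 bases before to 50 bases after a transcription start (GRCm38.p6). A window was found for 123 of the 152 members and for 27025 genes in all, and the one furthest 5′ was used for each gene. The members' windows held a median of 15 CG pairs, against 7 in all windows, and their median GC content was 60.3% against 52.7%. The letters GGGCGG, the GC box, occurred on either strand in 46.3% of the members' windows and in 35.9% of all windows. CCAAT occurred in 26.8% against 38.0%, TATAAA in 9.76% against 14.2%, TGACTCA, the AP-1 motif, in 3.25% against 5.17%, and the E-box CACGTG in 8.13% against 7.24%. The windows of all genes include those of non-coding genes. The 250 bases before the start are printed 5′ to 3′ for 5 of the 12 genes with the smallest p-values among members with a mean of 100 counts or more, since the comparison below turns on these genes, and capitals mark any of the 5 motifs on either strand.
Dlg2, the first of 3 starts, chr7:91090536-91090785, plus strand: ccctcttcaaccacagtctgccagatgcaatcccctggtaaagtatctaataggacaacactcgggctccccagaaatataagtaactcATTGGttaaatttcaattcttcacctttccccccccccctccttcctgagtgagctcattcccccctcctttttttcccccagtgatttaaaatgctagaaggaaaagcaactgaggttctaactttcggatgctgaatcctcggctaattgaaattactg
Skint5, chr4:113999504-113999753, minus strand: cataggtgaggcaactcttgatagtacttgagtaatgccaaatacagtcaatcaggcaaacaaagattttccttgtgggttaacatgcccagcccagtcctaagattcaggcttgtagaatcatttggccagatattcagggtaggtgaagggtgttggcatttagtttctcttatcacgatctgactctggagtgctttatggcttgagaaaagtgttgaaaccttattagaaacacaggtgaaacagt
Lsamp, the first of 2 starts, chr16:39984114-39984363, plus strand: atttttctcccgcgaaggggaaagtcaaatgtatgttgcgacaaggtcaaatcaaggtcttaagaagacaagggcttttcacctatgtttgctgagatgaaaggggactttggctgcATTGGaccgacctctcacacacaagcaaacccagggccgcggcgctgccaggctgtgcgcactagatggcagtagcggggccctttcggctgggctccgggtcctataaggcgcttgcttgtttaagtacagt
Rora, chr9:68653536-68653785, plus strand: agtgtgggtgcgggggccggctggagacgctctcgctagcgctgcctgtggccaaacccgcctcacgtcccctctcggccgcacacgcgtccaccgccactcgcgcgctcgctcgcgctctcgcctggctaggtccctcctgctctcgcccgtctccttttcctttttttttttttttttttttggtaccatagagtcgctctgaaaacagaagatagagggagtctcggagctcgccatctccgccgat
Slc7a11, chr3:50443614-50443863, minus strand: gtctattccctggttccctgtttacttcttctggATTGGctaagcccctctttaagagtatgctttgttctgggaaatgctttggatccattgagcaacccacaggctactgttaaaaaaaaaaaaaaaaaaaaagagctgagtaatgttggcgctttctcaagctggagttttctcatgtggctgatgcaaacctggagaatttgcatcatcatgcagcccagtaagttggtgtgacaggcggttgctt
The Rora sequence held 26 CG pairs, Lsamp 12, Dlg2 3, Slc7a11 2 and Skint5 1. A CCAAT box on the reverse strand was the one motif found, in Dlg2, Lsamp and Slc7a11, while Skint5 and Rora held none of the 5 in these bases. The Dlg2 window lies inside the GENCODE body, downstream of its first base, whereas the other 4 windows adjoin the start of the body or overlap it. A match of letters is a description and not a site.

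Levels were compared between genes per kilobase of exon, as RPKM computed from the deposited counts. The median RPKM over the 152 members was 0.557, against 5.26 over the other protein-coding genes. A mean RPKM of 1 or more was reached by 62 members, and 27 stayed under 0.1. The 6 highest were Fgfr2 at 32.5, Rora at 32.2, Slit3 at 15.6, Skint5 at 15.2, Camta1 at 8.52 and Etl4 at 6.97. Rora, a nuclear receptor that acts in lipid metabolism and the circadian clock, alone held 12.4% of the members' counts, and Rora with Fgfr2 22.4%. Slit3 is a secreted ligand of Robo receptors, Skint5 belongs to a family of immunoglobulin-like proteins of skin and thymus epithelium, and Camta1 is a calmodulin-binding transcription activator. At the low end, neuronal genes such as Anks1b and Nlgn1 had a mean RPKM of 0.02 to 0.03.

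The first question is whether very long genes as a class moved between the ages of the same mouse. The members' share of all gene counts was 0.348% ± 0.0139 (SD, n = 8) at 24 months and 0.327% ± 0.0155 at 30 months. The libraries at 24 months ran from 0.322% to 0.369% with a median of 0.348%, and those at 30 months from 0.305% to 0.350% with a median of 0.326%. The share was lower at 30 months in 7 of the 8 mice, and the ranges of the ages overlapped. In 2 of the 7 it was nearly level, from 0.348% to 0.346% in mouse 29 and from 0.351% to 0.350% in mouse 43. The share weighs the genes with the most counts, since 10 members held 43.8% of the members' counts. In bulk tissue, fewer cells that use these genes and less RNA per cell cannot be told apart.

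Gene by gene, the shift was small and in the same direction. The log2 change from 24 to 30 months in the paired edgeR fit had a median of -0.07 over the 152 members, and 97 of them, or 63.8%, were below 0. The other protein-coding genes had a median of 0.00, with 48.9% below 0. Compared with other protein-coding genes of like expression, defined as those within 0.25 of the member's mean log2 CPM (107 to 1438 genes for a member), the median difference was -0.07 and 98 of 152 were below 0. Matching on exonic length as well as expression brought this difference to -0.04. Leaving out each mouse in turn gave -0.09 to -0.05 for the difference from like-expressed genes.

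No single gene passed an adjusted p of 0.05 in the edgeR quasi-likelihood test with Benjamini-Hochberg adjustment, among the members (0 of 152, smallest adjusted p 0.141) or among all 21526 genes tested (0%). At an unadjusted p under 0.05, 17 members (11.2%) were lower at 30 months, against 7.18% of all genes tested. In the other direction 4 members (2.63%) were higher, against 4.86% of all genes tested. The count of lower members ranged from 13 to 23 when single mice were left out, and that of higher members from 1 to 12, with 12 reached without mouse 43 and 1 without mouse 21. DESeq2, run as an alternative, called 3 members lower (Dlg2, Nav3 and Skint5) and 0 higher at an adjusted p under 0.05, against 0.833% lower and 0.416% higher of the 18494 genes for which it gave an adjusted p. Of the 21 members past the unadjusted threshold in edgeR, 8 had a mean under 100 counts. DESeq2 gave an adjusted p for 131 members, and at an unadjusted p under 0.05 its counts over the 152 were 14 lower and 2 higher, against 6.01% lower and 5.13% higher of the 21526 genes.

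**Figure D1:**
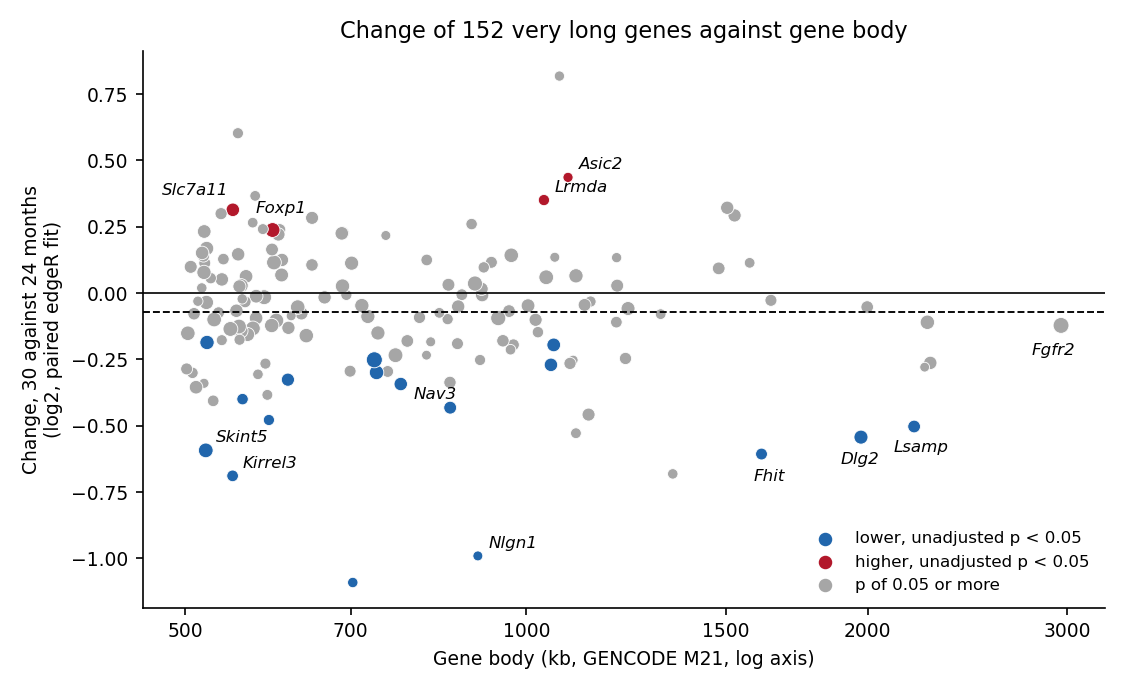
The log2 change from 24 to 30 months of each of the 152 very long genes (vertical axis, paired edgeR fit) is plotted against gene body in kb (horizontal log axis), with larger points for genes of higher mean count, colour for an unadjusted p under 0.05 and a dashed line at the median of -0.07. The 17 lower and 4 higher genes are spread over the range of lengths, and Fgfr2, the longest in GENCODE, lies near the median.

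Within the class the members were also divided by length. The median was -0.04 for 83 genes of 500 to 750 kb, -0.10 for 32 genes of 750 to 1000 kb and -0.08 for 37 longer ones. Among shorter protein-coding genes the median was 0.04 for bodies under 10 kb, 0.00 from 10 to 50 kb and -0.02 in each of the classes 50 to 100, 100 to 200 and 200 to 500 kb. The share of genes lower at an unadjusted p under 0.05 was 5.72% under 10 kb, 10.4% from 100 to 200 kb and 8.69% from 200 to 500 kb, and the share higher was 7.56%, 3.26% and 1.98% in these classes. In the members these shares were 11.2% and 2.63%. Differences between these classes were not tested.

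**Figure D2:**
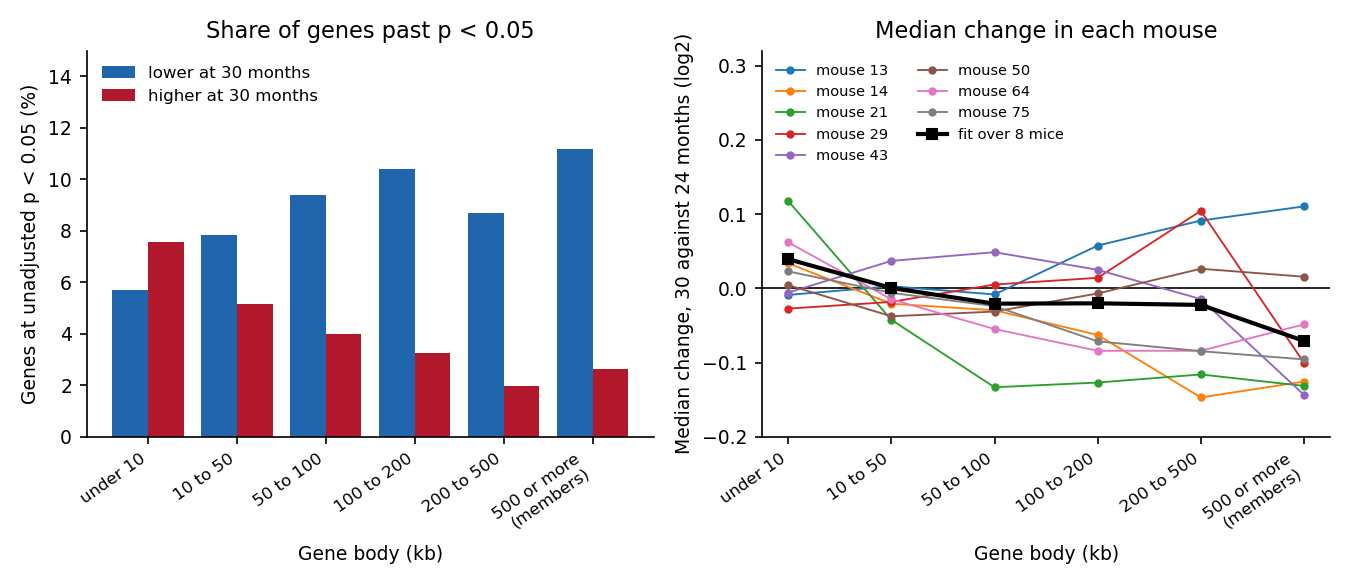
Left, the percentage of protein-coding genes at an unadjusted p under 0.05 in the paired edgeR fit, lower (blue) and higher (red) at 30 months, by gene body in kb; right, the median log2 change of each length class in each mouse (coloured lines) and in the fit over 8 mice (black). The red bars shrink from 7.56% under 10 kb to 1.98% at 200 to 500 kb and stand at 2.63% in the members, and mouse 13 alone ends above 0.1.

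The mice did not all move the same way. The members' median log2 change was -0.14 in mouse 43, -0.13 in mice 14 and 21, -0.10 in mice 29 and 75, and -0.05 in mouse 64. It was 0.02 in mouse 50 and 0.11 in mouse 13. So the median was lower at 30 months in 6 of 8 mice. Against genes of like expression it was below 0 in 7 mice, from -0.16 in mouse 43 to -0.01 in mouse 50, and 0.11 in mouse 13. Mouse 13 had 66 of 152 members lower, the fewest, and mice 14 and 21 had 97 each, the most.

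Technical and cell type measures are given beside these medians, and their part in the result was not tested. The share of reads that fell outside annotated exons was 15.7% to 18.1% per library and was lower at 30 months in 5 mice. It differed by -1.62 percentage points in mouse 13, -1.30 in mouse 75, -0.77 in mouse 21, -0.70 in mouse 14 and -0.62 in mouse 64, and by 0.86 in mouse 29, 0.22 in mouse 43 and 0.12 in mouse 50. The markers of skeletal muscle, 16 genes all tested, had median log2 changes from -3.21 in mouse 43 to 2.79 in mouse 13, which are also the mice with the lowest and the highest member median. Over the libraries the summed level of these 16 markers ran from 1471 to 16385 CPM at 24 months and from 2206 to 12668 CPM at 30 months. Smooth muscle markers likewise had their highest median in mouse 13 (1.36) and their lowest in mouse 43 (-0.65), and fat cell markers had their lowest in mouse 43 (-2.04). Over all mice the medians of these lists, of 10 genes each, were 0.36 and 0.35. The 16 skeletal muscle markers had 0.79, with 0 genes below 0, and 0 lower and 0 higher at an unadjusted p under 0.05. Of the lists checked, cartilage markers were lower most often, with all 12 tested genes below 0, 7 lower and 0 higher at an unadjusted p under 0.05, and a median log2 change of -0.46. Their median was below 0 in 6 mice, mice 64 and 75 being the exceptions. Hair follicle markers, 11 genes, had a median of -0.47 with 2 lower, and the 12 fibroblast markers a median of -0.24 with 0 lower and 1 higher. The hair follicle median was below 0 in 5 mice and ran from -1.68 in mouse 75 to 2.50 in mouse 43. Endothelial markers had a median log2 change of 0.59, with 7 of 10 higher and 0 lower at an unadjusted p under 0.05, and the 7 melanocyte markers a median of -0.46, with a median below 0 in 7 mice. At the same threshold 7.18% of all genes tested were lower and 4.86% higher. In mouse 50 the medians of the immune lists were 2.24 for T cells, 1.89 for macrophages and 3.08 for neutrophils. The members Dock2, Arhgap15 and March1 were 2.51, 2.25 and 2.00 higher in that mouse, with log2 changes of 0.15 ± 0.30, 0.11 ± 0.31 and 0.03 ± 0.26 over the 8 mice. The 14 markers of Schwann cells and nerve had a median log2 change of 0.06, with 0 lower and 1 higher at an unadjusted p under 0.05. Their summed level ran from 669.9 to 860.0 CPM at 24 months and from 702 to 925 CPM at 30 months.

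Direction was even across mice for few members. Lower in all 8 mice were 3 members, Dlg2, Nav3 and Fgf12 (1.97%), against 1.69% of all genes tested, and higher in all 8 were 0 members, against 1.08%. Lower in 6 or more mice were 46 members (30.3%), against 21.8% of all genes tested, and higher in 6 or more were 15 (9.87%), against 19.6%.

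Among synapse and adhesion proteins, Dlg2 had the smallest p of all members. It encodes a scaffold of the PSD-93 type that clusters receptors and channels under the membrane (chr7:90476672-92449247, plus strand, 1973 kb, 28 exons in the annotation). Its level was 27.2, 33.9 and 41.3 CPM (lowest, median, highest) at 24 months and 16.6, 24.0 and 31.2 CPM at 30 months. Every mouse was lower at 30 months, although the highest libraries at 30 months lay within the range at 24 months. The means were 34.2 ± 3.87 and 23.7 ± 4.67 CPM (SD, n = 8), the log2 change was -0.54 ± 0.09 (SE), and the edgeR adjusted p was 0.141. By mouse the change ran from -1.03 in mouse 21 to -0.22 in mouse 43. Nlgn1, a neuroligin that binds neurexins across the synapse, had a mean of 11 counts and a log2 change of -0.99 ± 0.33 (edgeR adjusted p 0.314). Of the 12 synaptic adhesion and scaffold proteins, these were the 2 (16.7%) past an unadjusted p of 0.05, against 7.18% lower of all genes tested. The median of the 12 was -0.09.

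The IgLON proteins are small GPI-anchored adhesion molecules of neurons and other cells, and all 4 measured ones had a negative log2 change. Their median was below 0 in all 8 mice, though by only -0.0019 in mouse 50, where Opcml and Negr1 were higher. Lsamp (chr16:39984361-42181679, plus strand, 2197 kb) was at 6.10, 6.998 and 9.48 CPM (lowest, median, highest) at 24 months and 3.41, 5.22 and 7.15 CPM at 30 months. It was lower in 7 mice, mouse 64 being the exception, and the ranges overlapped. The log2 change was -0.50 ± 0.14 with an edgeR adjusted p of 0.278. The cartilage markers also had their highest median in mouse 64 (0.54, against 0.09 for Lsamp) and their lowest in mouse 29 (-1.43, against -1.05), and in mouse 75 they had 0.08 against -0.28. Their part in the Lsamp and IgLON values was not tested. Opcml had -0.46 ± 0.25 and was lower in 7 mice, from -2.12 in mouse 29 to 0.89 in mouse 50. Without mouse 29 its change was -0.24. The melanocyte markers also had their lowest median in mouse 29, at -2.71. In mice 43 and 50 they had 0.30 and -0.18, against -0.58 and 0.89 for Opcml. The fibroblast markers had their lowest median in mouse 29 (-1.07) and their highest in mouse 50 (0.93). In mouse 21 they had 0.28, against -0.60 for Opcml. The part of either list in the Opcml value was not tested. Negr1 had -0.30 ± 0.16 and Ntm -0.21 ± 0.22, and only Lsamp of the 4 was past an unadjusted p of 0.05. Since the group was picked with earlier results known, its shared sign is a description.

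Of the 9 guidance receptors and ligands, 3 (33.3%) were lower at an unadjusted p under 0.05, against 7.18% of all genes tested. Robo1, the receptor for Slit ligands (chr16:72308306-73046095, plus strand, 738 kb), was at 46.1, 56.5 and 77.6 CPM at 24 months and at 38.6, 47.1 and 56.4 CPM at 30 months. Mouse 13 alone was higher at 30 months, and the ranges overlapped. That gave a log2 change of -0.30 ± 0.10 (edgeR adjusted p 0.306). Tenm3, a teneurin that guides connections between cells, had -0.33 ± 0.10 and was lower in 7 mice, and Kirrel3, an immunoglobulin-type adhesion protein, had -0.69 ± 0.21 at a mean of 59 counts. Of the 9, 7 had a negative change, and only Robo1, Tenm3 and Kirrel3 were past an unadjusted p of 0.05. Robo2 had 0.23 ± 0.14, Slit3 -0.02 ± 0.15, Tenm2 -0.06 ± 0.22 and Tenm4 -0.15. Nrg1, the neuregulin that supports Schwann cells, had 0.82 ± 0.37 at a mean of 15 counts (edgeR adjusted p 0.421). Mouse 64 alone was lower, mice 21, 29 and 50 were higher by the most with 1.63, 2.19 and 1.79, and mouse 75 had 0.0011.

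Cytoskeletal and junction genes were led by Nav3, a neuron navigator that binds microtubule ends (chr10:109681259-110456204, minus strand, 775 kb). It was at 13.4, 16.4 and 19.2 CPM at 24 months and at 10.7, 12.2 and 16.97 CPM at 30 months. All 8 mice were lower, with overlapping ranges. Its log2 change was -0.34 ± 0.08 and the edgeR adjusted p 0.222. Of the 12 genes in this group, 10 had a negative change, among them Pard3 (-0.14 ± 0.09) and Syne1 (-0.10 ± 0.08), but only Nav3 was past an unadjusted p of 0.05. That is 8.33% of the group, against 7.18% lower of all genes tested. Its paralog Nav2 had 0.11 ± 0.10. Among cadherins and catenins, Ctnnd2, a delta-catenin of junctions and dendrites, had -0.43 ± 0.15 and was lower in 6 mice (edgeR adjusted p 0.324), whereas Cdh13, a cadherin without a transmembrane part, had 0.06 ± 0.13.

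Skint5 (chr4:113477891-113999503, minus strand, 522 kb) had the most negative log2 change among members with a mean of over 1000 counts. It stood at 69.4, 81.1 and 104.4 CPM at 24 months and at 32.8, 57.6 and 87.7 CPM at 30 months. Mouse 64 alone was higher at 30 months, and 30-month libraries spread wider than those at 24 months, with means of 82.8 ± 10.8 and 56.8 ± 17.4 CPM (SD, n = 8). The log2 change was -0.59 ± 0.14 with an edgeR adjusted p of 0.222. Skint genes are a cluster of close copies, so the counts of Skint5 are uncertain where reads match several of them. The markers of basal keratinocytes, 10 genes, had a median of -0.02. The 11 tested markers of differentiated keratinocytes had a median of -0.16. At an unadjusted p under 0.05, 4 (36.4%) were lower (Krt10, Flg2, Dsg1a and Dsc1) and 1 (9.09%) higher (Krt1), against 7.18% and 4.86% of all genes tested. In mice 29 and 13, where Skint5 had its lowest changes (-1.25 and -1.05), the differentiated keratinocyte markers had -0.01 and -0.13. The cartilage markers had -1.43 and -0.68 in these mice. In mice 64 and 75 the cartilage markers had 0.54 and 0.08, against 0.08 and -0.51 for Skint5. The part of any of these lists in the Skint5 value was not tested.

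The transcription factors included Rora, the member with the highest mean count. Rora (chr9:68653786-69388246, plus strand, 734 kb) was at 410.4, 436.5 and 540.9 CPM at 24 months and at 279, 391 and 497 CPM at 30 months. Mice 13, 21 and 29 were the lowest at 30 months, while mice 14, 64 and 75 stayed within 0.05 of their 24-month level on the log2 scale. The log2 change was -0.25 ± 0.09, with 6 of 8 mice lower and an edgeR adjusted p of 0.341. Foxp1, a forkhead repressor, went the other way. It was at 59.8, 71.7 and 89.7 CPM at 24 months and at 68.7, 83.8 and 135.7 CPM at 30 months. Of the 8 mice 7 were higher, mouse 29 by the most with 0.80 and mouse 64 being the exception. Its log2 change was 0.24 ± 0.10 (edgeR adjusted p 0.369). Zbtb20 had -0.23 ± 0.11 and was lower in 7 mice. Sox5 and Sox6, factors of cartilage and other lineages, had -0.18 ± 0.11 and -0.16 ± 0.13. The cartilage markers were lower too, as given above, with medians of -1.43 in mouse 29, -0.68 in mouse 13 and 0.54 in mouse 64. In these mice Sox6 had -0.05, 0.67 and -0.32, and Sox5 had -0.04, 0.14 and 0.22. Sox6 was highest in mouse 13 and lowest in mouse 43 (-0.67), as were the skeletal muscle markers. The part of either list in the Sox5 and Sox6 values was not tested. The 16 transcription and chromatin genes had a median of -0.13, with 1 (6.25%) lower and 1 (6.25%) higher, against 7.18% and 4.86% of all genes tested.

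**Figure D3:**
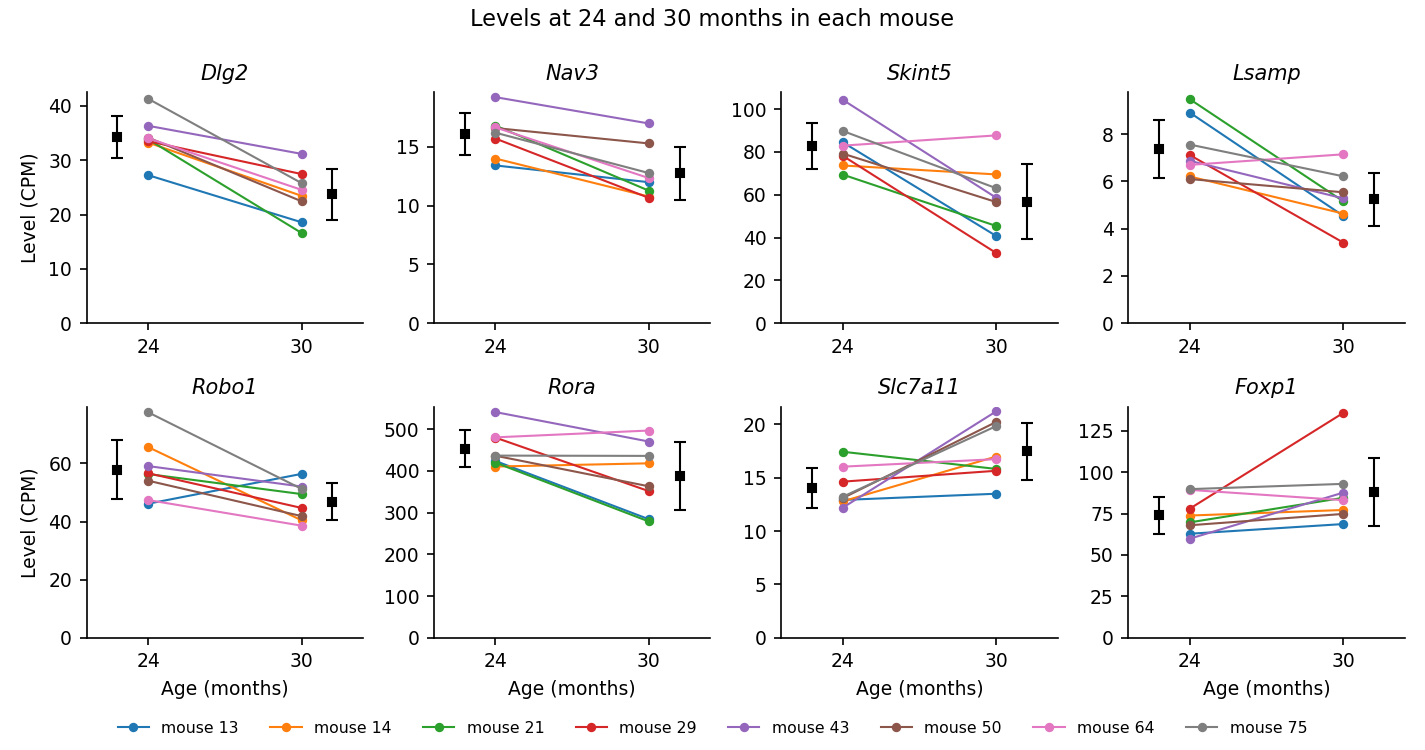
The level in CPM (vertical axes from 0) at 24 and 30 months is drawn for 8 very long genes, with a coloured line for each mouse and black squares with bars for the mean and SD (n = 8). All 8 lines descend for Dlg2 and Nav3, and 7 of 8 ascend for Slc7a11 and Foxp1.

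Slc7a11, whose product imports cystine for glutathione synthesis, was with Foxp1 one of the 2 higher members that had a mean of over 100 counts. It stood at 12.2, 13.1 and 17.4 CPM at 24 months and at 13.5, 16.9 and 21.2 CPM at 30 months. Mouse 21 alone was lower at 30 months, and the ranges overlapped. The log2 change was 0.31 ± 0.11 (edgeR adjusted p 0.334). Given its short RefSeq body, Slc7a11 is a very long gene in GENCODE only. Lrmda and Asic2, with means of 38 and 14 counts, were the remaining 2 of the 4 higher members.

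Genes at fragile sites did not all change in one direction. Of the 9 measured, 5 had a negative and 4 a positive change, and their median was -0.04. By mouse the median of the 9 was below 0 in 7 mice and 0.07 in mouse 13. Fhit, a diadenosine triphosphate hydrolase spread over 1612 kb with 1.49 kb of exon (chr14:9550092-11162035, minus strand), was at 2.18, 2.92 and 3.44 CPM at 24 months and at 1.10, 1.73 and 3.06 CPM at 30 months. In 7 of 8 mice it was lower, mouse 21 being level, and the log2 change was -0.61 ± 0.18 (edgeR adjusted p 0.279). Wwox, an oxidoreductase with WW domains over 913 kb, was at 12.3 ± 1.17 and 12.4 ± 1.18 CPM (SD, n = 8), a log2 change of 0.02 ± 0.09. Macrod2 had -0.05 ± 0.12, Immp2l 0.12 ± 0.20, Ccser1 0.03 ± 0.11 and Dab1 -0.04 ± 0.13, none past an unadjusted p of 0.05. Naaladl2 had -0.68 ± 0.35 and Rad51b 0.02 ± 0.27, at means of 19 and 18 counts.

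The genes of the dystrophin complex, which ties the cytoskeleton of muscle and other cells to the matrix, gave no gene past an unadjusted p of 0.05. Dmd (chrX:82948870-85206141, plus strand, 2257 kb, 79 exons) was at 38.8, 46.9 and 68.6 CPM at 24 months and at 37.0, 44.7 and 56.0 CPM at 30 months. The mice split 4 lower and 4 higher, from -0.68 in mouse 43 to 0.38 in mouse 13. Its log2 change was -0.11 ± 0.10, and with single mice left out it ran from -0.17 without mouse 13 to -0.023 without mouse 43. Sgcd, a sarcoglycan, had -0.26 ± 0.21 with -1.54 in mouse 43, and -0.073 without that mouse. Lama2, the laminin chain of muscle basement membrane, had -0.16 ± 0.11. In mice 43 and 13 the skeletal muscle markers stood furthest apart, at -3.21 and 2.79, and their part in the Dmd and Sgcd values was not tested.

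Protein and lipid kinases and phosphatases held 12 members with a median of -0.12. Fgfr2 was at 347.4 ± 41.9 CPM at 24 months and at 323.2 ± 64.4 CPM at 30 months (SD, n = 8), a log2 change of -0.12 ± 0.12, with 5 of 8 mice lower. With single mice left out it ran from -0.19 without mouse 13 to -0.033 without mouse 50. Ptprd, a receptor phosphatase over 2271 kb, had -0.26 ± 0.14, and Ntrk3, the receptor for neurotrophin 3, -0.40 ± 0.15 at a mean of 49 counts. The group of ion channels and their partners included Fgf12, an intracellular partner of sodium channels, which was lower in all 8 mice (-0.48 ± 0.17, mean of 36 counts, edgeR adjusted p 0.331). In the matrix group Gpc6, a heparan sulphate proteoglycan of the cell surface, was at 16.7 ± 2.92 and 13.7 ± 1.71 CPM, a log2 change of -0.27 ± 0.10 with 6 of 8 mice lower. Rbms3, an RNA-binding protein, had -0.20 ± 0.09, and Cntnap2, the neuronal adhesion protein of 2245 kb, -0.28 ± 0.48 at the lowest mean count of all. A mixed group of 7, made up of cAMP and G protein signalling genes with the carboxypeptidase Agbl1 and the focal adhesion protein Lpp, was the one group with no negative change, with a median of 0.26. None of the 7 was past an unadjusted p of 0.05, Pde4d having 0.32 ± 0.29 and Plcb1 0.23 ± 0.15. The mice were far apart for some of them. Pde4d had 1.69 in mouse 13 and -1.63 in mouse 43, and Agbl1 2.64 and -2.18, beside skeletal muscle marker medians of 2.79 and -3.21 in these mice, whose part in the group's values was not tested. In mouse 43 the group's own median was -0.54.

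The remaining groups held few changes. The 7 regulators of small GTPases had a median of 0.11, with Psd3, an exchange factor for ARF6, lower at -0.19 ± 0.08 and none higher. By mouse the median of these 7 was below 0 in 5 mice and highest in mouse 50 with 0.35, where Dock2 and Arhgap15, both of this group, had 2.51 and 2.25 beside the raised immune markers, whose part was not tested. Of the 13 genes of membrane traffic and other membrane proteins none was past an unadjusted p of 0.05, and their median was -0.03. The enzymes Dpyd, which degrades pyrimidines, and Cdkal1, which modifies tRNA, had -0.05 ± 0.11 and -0.02 ± 0.08. The 20 members given no role had a median of -0.05, with 2 (10%) lower, Skint5 among them, and 3 (15%) higher (Slc7a11, Lrmda and Asic2). Of all genes tested, 7.18% were lower and 4.86% higher.

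**Figure D4:**
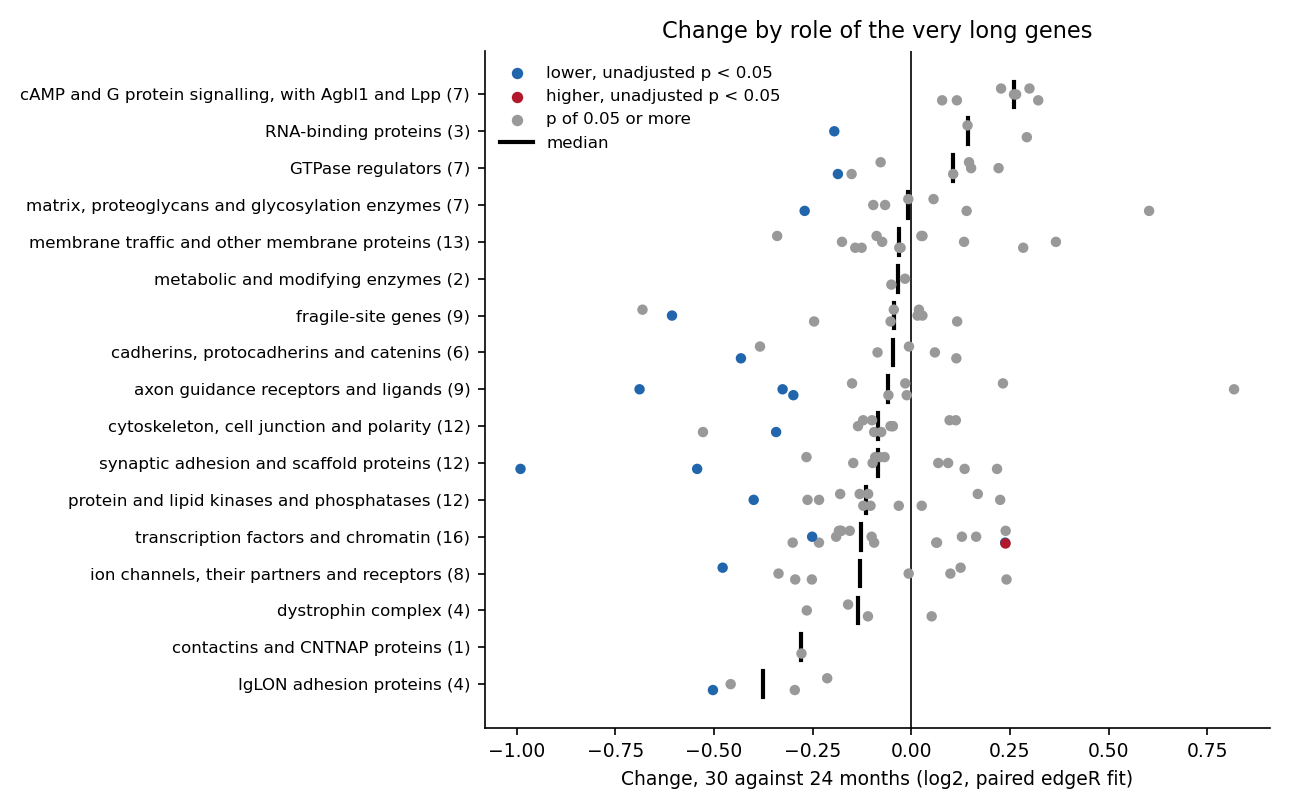
Each point is the log2 change of a very long gene from 24 to 30 months (horizontal axis, paired edgeR fit), arranged by role with the number of genes in parentheses, with blue and red for lower and higher at an unadjusted p under 0.05 and a black bar at the group's median. The IgLON genes lie to the left of 0, the mixed cAMP and G protein group to the right, and most other groups straddle 0.

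The machinery that long genes rely on was described from a list of 60 genes of transcription elongation and topoisomerases, all of which were tested. The list's median log2 change was -0.03, and 39 of the 60 (65%) were below 0, against 48.9% of the protein-coding genes under 500 kb. At an unadjusted p under 0.05, 3 genes (5%) were lower and 4 (6.67%) higher, near the 7.18% lower and 4.86% higher of all genes tested. Lower were Top2b, the topoisomerase that relieves twist in active genes, with 312.7 ± 9.45 CPM at 24 months and 280.0 ± 27.4 CPM at 30 months (SD, n = 8) and a log2 change of -0.16 ± 0.06, Cdk12, a kinase of the elongating polymerase, with -0.18 ± 0.07, and Eloa, an elongin subunit, with -0.15 ± 0.06. Each of the 3 was lower in 7 of 8 mice. Higher were Tcea2, a factor that restarts stalled polymerase, with 0.29 ± 0.08, Supt4a, a subunit of the elongation factor DSIF, with 0.19 ± 0.08, Cdk9, the kinase that releases paused polymerase, with 0.16 ± 0.06, and Thoc1, of the complex that packs nascent RNA for export, with 0.13 ± 0.05. Tcea2 and Cdk9 were higher in all 8 mice, and none of the 7 passed an edgeR adjusted p of 0.05. The number past the unadjusted threshold ran from 3 without mouse 21 to 12 without mouse 43. The 20 immediate early genes, which respond to handling and stress, had a median of 0.31, with 10 higher and 0 lower. Their part in the class difference was not tested.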

How the data were processed

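RNA-seq of ear skin was analysed for 8 male mice, each sampled at 24 and 30 months, 16 libraries in all. The authors made the single-end libraries with a TruSeq RNA kit, aligned the reads with TopHat to GRCm38 (mm10) and counted them per Ensembl gene. The submitters' processing notes name CASAVA 1.8.4, TopHat2 2.1.0 and HTSeq 0.6.1p1. The deposited values are raw counts per gene, not normalized and with replicates kept apart. Whether counting used strand is not given in the sources used here, so members that overlap another gene or have close copies are uncertain. Lines without a gene name took 18.7% to 21.1% of a library and were left out. The number of columns from other series was 0.

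Samples were grouped by the age category in the labels and paired by the animal number in their titles, which the study's sample sheet also gives as the animal. As a check, each library's deviation from its age mean correlated with that of the same mouse at a median of -0.02 and with that of other mice at -0.01, so the pairing rests on the design. No 2 libraries held identical counts, and in each of the 120 pairs at least 8.06% of well-counted genes differed by more than 5 counting SDs.

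GENCODE M21 (GRCm38) matched 45143 identifiers and gave gene bodies and exon lengths. The main test was the quasi-likelihood test of edgeR 4.0.16 under R 4.3.3, after TMM scaling and filterByExpr, with the mouse as a block, and p-values were adjusted by the method of Benjamini and Hochberg over all 21526 genes tested. Within-mouse changes are differences of log2 CPM with a prior count of 2. CPM and RPKM were computed here. DESeq2 1.42.0 was an alternative, as were other size factors, no low-count filter, no mouse term, each mouse left out, other length and count limits and other definitions of like expression. The script was tested on simulated data. Tables were made in Python 3.11.15 with numpy 2.4.6 and pandas 2.3.3.

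The members and lists were chosen with earlier results of these data known. Genes are named if they were among the 12 members with the smallest p at a mean of 100 counts or more, the 6 with the highest RPKM or the 4 with the longest body, if they are IgLON, dystrophin complex or fragile-site genes, or if they lie at a limit of the rule. Other genes named were chosen after their values were seen, and some genes that the rule names are not reported here. Each age has 8 libraries, and the counting of a gene at a mean of 10 counts is imprecise, so low members are given with their mean count.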

Additional observations from a re-analysis of the deposited data

Results flagged for a closer look

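In 37 sets of 8 within-mouse changes (35 named genes and both class medians), 1 value stood far from the other mice by Dixon's ratio of gap to range, and chance alone marks about 1 in 20 such sets. Rad51b, a DNA repair gene with a mean of 18 counts, had a log2 change of -1.62 in mouse 29, while the other 7 mice lay between -0.29 and 0.65.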

How the results depend on the processing

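The median log2 change of the very long genes and its difference from genes of like expression stayed below 0 under every alternative run, from -0.09 to -0.04 and from -0.10 to -0.04. When single mice were left out, the median ranged from -0.08 to -0.04, the difference from -0.09 to -0.05, the number of lower genes at an unadjusted p under 0.05 from 13 to 23, the number of higher genes from 1 to 12 and the number of elongation genes past that threshold from 3 to 12. Without the replicate block, that is without pairing by mouse, 16 members were lower and 2 higher, against 17 and 4 with it, and 2 were higher by the DESeq2 Wald test. Other limits of the class changed how many genes were counted: 37 of 403 genes were lower with a body of 300 kb or more, 8 of 69 lower and 2 higher with 750 kb or more, and 11 of 89 lower and 2 higher with a mean of at least 100 counts. For comparison, 7.18% of all genes tested were lower and 4.86% higher. Among protein-coding genes of 200 to 500 kb these shares were 8.69% and 1.98%. Of 35 named genes, 27 kept their sign in every setting. The others were near 0 or had few counts, and the cause was not tested: with single mice left out, Slit3 ranged from -0.12 to 0.10 (0.0080 without the replicate block), Etl4 from -0.030 to 0.10, Cntnap2 from -0.72 to 0.13, Macrod2 from -0.13 to 0.0044, Ccser1 from -0.038 to 0.095, Dab1 from -0.14 to 0.021, Wwox from -0.013 to 0.052 and Rad51b from -0.088 to 0.25. Alternatives on RefSeq bodies and on GC content were chosen after seeing the data and gave differences of -0.07 and -0.06. Among named genes that kept their sign, single mice still moved the value of Camta1 (-0.13 to -0.025), Immp2l (0.025 to 0.25), Lama2 (-0.22 to -0.10, the latter without mouse 14), Ntm (-0.38 without mouse 43 to -0.14 without mouse 50) and Ptprd (-0.35 to -0.17, the latter without mouse 29) by over 1.5 times. The median standard error of a member's log2 change was 0.15, which limits what single members show.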
